A study of Mus musculus with 42 samples.

Results

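A group of 10 genes of the fibroblast growth factor (FGF) pathway was followed through individual mouse retinal cells in the period when retinal neurons are born. They were chosen by gene symbol from the 18194 genes measured. They are the secreted ligands Fgf3, Fgf9 and Fgf15, the receptors Fgfr1, Fgfr2 and Fgfr3, the target or feedback genes Spry2, Spred1 and Etv5, and Fgf13. Fgf13 carries the family name but encodes an intracellular FGF homologous factor that acts on sodium channels and does not activate FGF receptors, so it was kept apart from the ligands. The label of this gene group as ligands, receptors and feedback genes therefore does not cover Fgf13.

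Secreted FGFs bind receptor tyrosine kinases at the cell surface, together with heparan sulfate, and the activated receptor signals through adaptor proteins to Ras and the MAP kinases. Among the genes that respond are Ets family transcription factors such as Etv5, and Sprouty and Spred proteins, which dampen the same pathway. In the eye, FGF signaling is known for its part in the specification of the neural retina and in the onset of ganglion cell differentiation.

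The data comprised 42 profiles of single retinal cells from CD-1 mice, an outbred strain, with no genetic change or treatment. E12.5, E16.5 and P0, the day of birth, contributed 11, 11 and 13 cells. The ages between them contributed 4 cells (E13.5), 2 cells (E14.5) and 1 cell (E15.5), and each cell was hybridized to its own array. The cells were picked at random from dissociated retinas and classed afterwards from their expression, with Fgf15 among the genes that defined a progenitor, and 6 of them were placed in transition between progenitor and neuron. The study also remarked on Fgf3, Fgf9, Spred1 and Etv5 in these same cells, so their presence here is no independent observation.

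The value of a gene in a cell was the highest MAS 5.0 signal among its probe sets, on a linear scale, and values of 1000 or more counted as presence. Because no animal or litter is named for any cell, each stage is 1 sample, and stages were compared without a test. The ranges in parentheses after shares are exact (Clopper-Pearson) 95% intervals, those after differences of shares are Newcombe 95% intervals, and both cover counting error only. Where no cell was positive, the share still allowed is given as 3 counts of the total. Fewer cells with a transcript and less transcript per cell cannot be told apart below the level of presence. The cells held between 1386 and 5253 genes each. Of 12 progenitor markers measured, 63.1% of the gene and cell combinations were present, against 51.4% for Müller glia markers, 23.8% for ganglion cell markers, 16.1% for endothelium markers, 15.9% for amacrine cell markers, 7.14% for photoreceptor markers, 2.38% for horizontal cell markers, 3.17% for pigment epithelium markers and 4.37% for lens markers. The endothelium share rested on Kdr, present in 25 cells, while every other endothelium marker was present in at most 1 cell. The Müller glia share rested mostly on Vim, Glul and Slc1a3, present in 40, 36 and 21 cells. The study reported Glul and Slc1a3 in progenitors. Rlbp1 was present in 11 cells, all of P0, and Aqp4 in 0. The study classed the cells with Ccnd1 and Sfrp2 of the progenitor list and with Nefl, Tfap2b and Nrl of the neuron lists, among others. The order of these shares is therefore no independent view of cell identity.

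5 arrays of E16.5, those of cells E8, F1, J1, J2 and J4, stood apart from the rest. On them the 18 hybridization control probe sets had a spread around their usual pattern of 0.64 to 0.67 (SD of log2 signals), while the other 37 arrays reached 0.20 at most. The median signal over all genes was 440 on these arrays and 81.6 on the remaining 6 E16.5 arrays, and 54.5% of the present values on them lay between 1000 and 2000, against 14.3% on the others. The FGF genes followed the same division. A median of 6 of the 10 genes was present on the 5 arrays (range 4 to 8) and of 2 on the other 6 (range 2 to 4), and 17 of the 29 present values on the 5 arrays lay between 1000 and 2000, against 2 of 15 on the others. The main counts that rest on these arrays are given below with and without them, and the part of the departing controls in these values was not tested.

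Over all 42 cells, 163 of the 420 gene and cell combinations were present, and every cell held at least 1 of the 10 genes (median 4, range 1 to 8). Fgf15 was present in 32 cells (76.2%, 60.5 to 87.9), Etv5 in 31 (73.8%, 58.0 to 86.1), Spred1 in 24 (57.1%, 41.0 to 72.3), Fgf9 in 20 (47.6%, 32.0 to 63.6) and Fgf13 in 19 (45.2%, 29.8 to 61.3). Fgfr1 followed with 15 cells (35.7%, 21.6 to 52.0), Fgf3 with 9 (21.4%, 10.3 to 36.8), Spry2 with 7 (16.7%, 6.97 to 31.4), Fgfr2 with 5 (11.9%, 3.98 to 25.6) and Fgfr3 with 1 (2.38%, 0.0603 to 12.6). The intervals of neighbors in this order overlapped throughout. Among all genes measured, 96.9% were present in fewer cells than Fgf15 and 57.8% in fewer cells than Fgfr2. The number of FGF genes in a cell moved with the number of all genes present in it (Pearson r = 0.53, Spearman rho = 0.58 over 42 cells, which share the amplification and scaling). Without the 5 arrays the values were 0.56 and 0.55 over 37 cells.

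**Figure D1:**
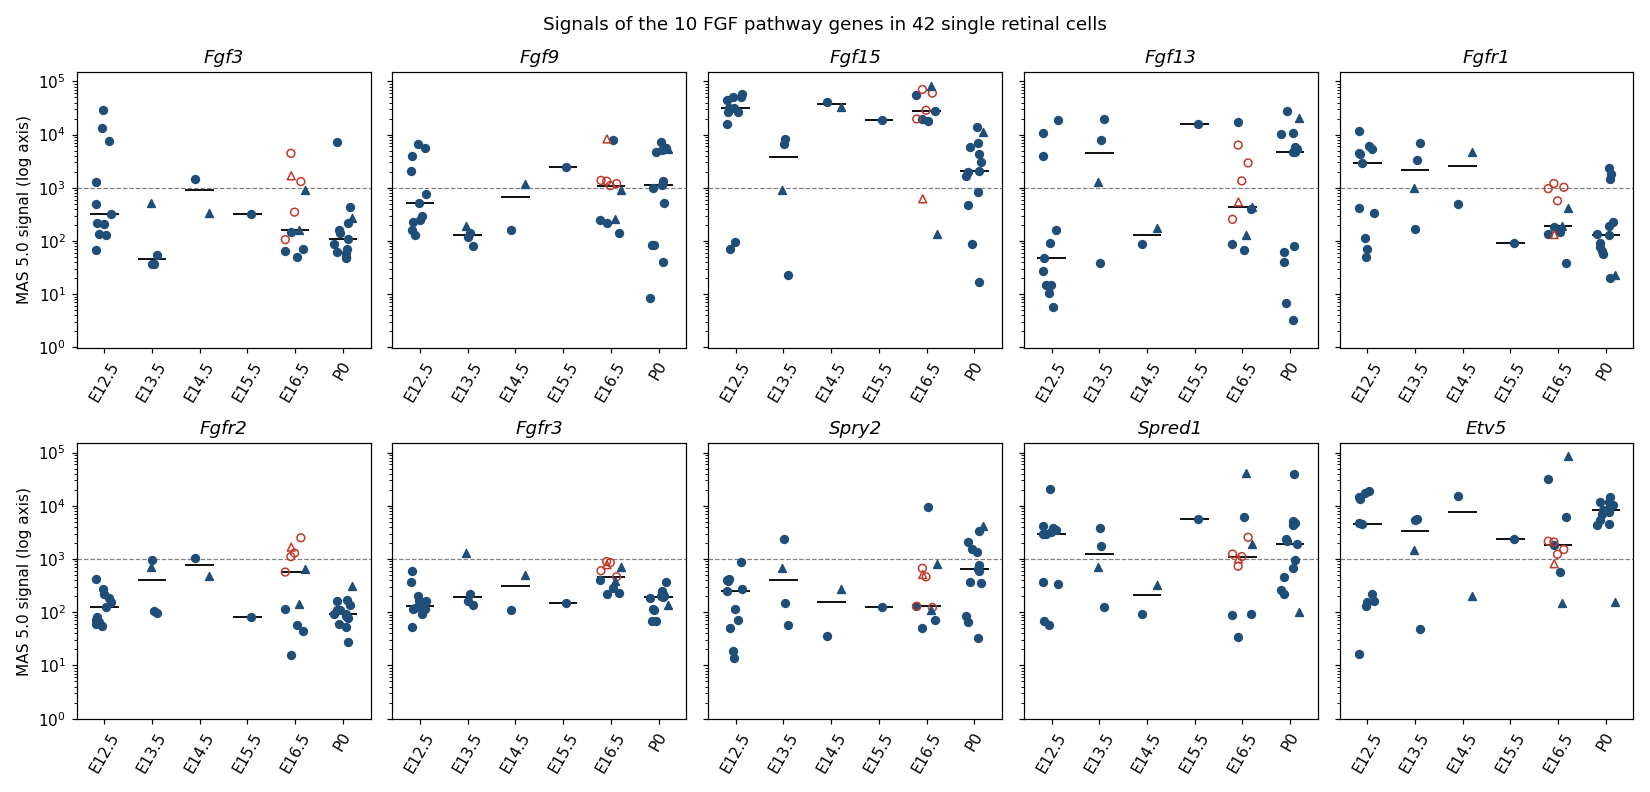
MAS 5.0 signal (log axis) of each of the 10 genes in each of the 42 cells, by stage. Black bars are medians, the dashed line is the level of presence (1000), open red symbols are the 5 E16.5 arrays that stood apart and triangles the 6 transitional cells. The 9 present Fgf15 values of E12.5 lie above the 9 of P0, which was not so after quantile normalization, and 4 of the 5 Fgfr2 values above the line are open symbols.

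The ligand Fgf15 was the most widespread of the 10 genes, and its signal as deposited was far lower at P0 than at E12.5, while the difference in the share of positive cells had an interval that included 0. It is the mouse ortholog of human FGF19 and is known as a marker of proliferating neuroepithelium. At E12.5 its signal ran from 72.0 to 57415 with a median of 31235, and at E16.5 from 138 to 80707 with a median of 27430. At P0 it ran from 16.7 to 13889 with a median of 2063. The signals were 6797, 914, 8424 and 22.8 in the 4 cells of E13.5, 33282 and 41292 in the 2 cells of E14.5 and 18998 in the cell of E15.5.

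The number of Fgf15 cells was 9 in each of these 3 stages, so that P0 minus E12.5 came to -12.6 percentage points (-42.4 to 22.03). The 9 present signals of E12.5 began at 16080.3, above the highest of P0, 13889, and those of E16.5 began at 18381 (4 of the 5 arrays that stood apart and 5 of the other 6 were positive). This comparison of ranges, too, was chosen after the values were seen. The 2 present signals of E13.5, by contrast, fell within the range of P0. Of the 2194 genes present in at least 5 cells of both stages, 0.273% had all present signals of E12.5 above all those of P0 and 0.0456% the reverse, and Fgf15 was the only 1 of the 3 FGF genes among them (with Spred1 and Etv5) that did. The ratio of medians over all cells was 15.1-fold lower at P0, in a comparison where 11.8% of the 2918 genes with a median at the level of presence in either stage were at least 4-fold lower and 32.4% at least 4-fold higher. The median over these genes was 0.56 higher at P0 on the log2 scale, and quantile normalization moved it to 0.45. After that normalization the lowest present Fgf15 signal of E12.5 was 28152 and the highest of P0 28979, so that the ranges met, while the log2 ratio of medians went from -3.92 to -4.51.

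Fgf3, a ligand best known from the induction of the inner ear, was present in 4 cells of E12.5, 1 of E14.5, 3 of E16.5 and 1 of P0. The present signals at E12.5 were 1280, 7442, 13155 and 29452, the single value at P0 was 7383 in cell G2, and cell D7 of E14.5 had 1488. In the other cells of P0 the signal was at most 438. All 3 positive cells of E16.5 were on the 5 arrays that stood apart (1308, 1680 and 4442), and on the other 6 arrays the highest signal was 905. P0 minus E12.5 was -28.7 points (-57.6 to 4.58).

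Fgf9, a ligand known for its part in setting the boundary between retina and pigment epithelium, was positive in 4, 6 and 8 cells in the order E12.5, E16.5, P0. Its signal ran from 129 to 6726 at E12.5 (median 515), from 142 to 8271 at E16.5 (median 1101) and from 8.60 to 7138 at P0 (median 1151). The 4 cells of E13.5 lay between 80.7 and 189, the 2 of E14.5 at 1172 and 162, and the cell of E15.5 at 2511. The stages overlapped almost fully. Of the 6 positive cells of E16.5, 5 were the 5 arrays that stood apart, where 4 of the values lay between 1101 and 1376, while 1 of the other 6 cells was positive (7880). The cells nearest to the level of presence were P0 cell G2 at 1006, just inside, and E16.5 cell E5 at 894, just outside. P0 minus E12.5 was 25.2 points (-13.2 to 54.8), but 2.10 at a level of presence of 2000, 9.79 with the mean of the probe sets and -6.99 after quantile normalization (-40.7 to 28.5).

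Fgf13 was either well above or well below the level of presence in most cells. 3 of the 11 E12.5 cells were positive (4015, 10644 and 18540) and the others had at most 163, while 8 of the 13 P0 cells were positive (4711 to 27658) and the others had at most 79.7. At E13.5 the signals were 38.6, 1309, 7806 and 19266, at E14.5 174 and 87.9, and at E15.5 15568. At E16.5 it was present in 4 of 11 cells, 3 of them among the 5 arrays (1348, 2931 and 6346) and 1 among the other 6 (17558). P0 minus E12.5 was 34.3 points (-4.91 to 61.4). The ratio of medians, 98.8-fold higher at P0, compares a median of 4718 with one of 47.8 that lies far below the level of presence. It rests on whether more or fewer of the cells were positive. Of the 2918 genes compared, 32.4% were at least 4-fold higher at P0.

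Receptor transcripts, which here are those of Fgfr1, Fgfr2 and Fgfr3, were found in 18 of the 42 cells (42.9%, 27.7 to 59.0). Ligands were found in more cells, 35 (83.3%, 68.6 to 93.0), as were target genes, in 39 (92.9%, 80.5 to 98.5). Fgfr1 accounted for 15 of the 18. At E12.5 its signal ran from 49.9 to 11700 with a median of 2954, and 6 of 11 cells were positive. The E13.5 cells had 167, 1000.5, 3289 and 7075, the E14.5 cells 4687 and 497, and the E15.5 cell 92.9. At E16.5 it ran from 38.6 to 1206 (median 187) with 2 of 11 cells positive, both on the 5 arrays that stood apart, and at P0 from 19.8 to 2323 (median 127) with 3 of 13 positive, cells C1, E6 and F3.

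The 6 present Fgfr1 signals of E12.5 (2954 and above) all exceeded the 3 of P0 (1471, 1804 and 2323), a comparison chosen in the same way. Of the 4120 genes present in at least 3 cells of both stages, 1.46% had this pattern and 0.461% the reverse. Among the 6 FGF genes compared, Fgf15 and Fgfr1 alone had it. The minimum here was 3 cells and not the 5 used for Fgf15, with Fgfr1 present in only 3 cells of P0. At a level of presence of 2000 and after quantile normalization, only 1 P0 cell was positive for Fgfr1, below that minimum. P0 minus E12.5 in the share of positive cells was -31.5 points (-59.9 to 6.52). It was -46.9 (-71.8 to -9.97) both at a level of presence of 2000 and after quantile normalization, and -54.5 (-78.7 to -19.6) with the mean of the probe sets. In addition, the ratio of medians was 23.2-fold lower, with the median of P0 far below the level of presence. Of the 2918 genes compared, 11.8% were at least 4-fold lower at P0. The cells nearest to that level were E13.5 cell A6 at 1000.5, inside, and E16.5 cell J4 at 964, outside.

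Fgfr2 was present in 5 cells and Fgfr3 in 1. 4 of the 5 Fgfr2 cells were E16.5 cells on the arrays that stood apart, with signals of 1112, 1294, 1673 and 2515, and the other was E14.5 cell D7 with 1035. On the other 6 arrays of E16.5 the highest Fgfr2 signal was 658, at E12.5 it was 416 and at P0 309. The 0 of 13 cells at P0 allow a share of up to 23.1% and the 0 of 11 at E12.5 a share of up to 27.3%. Fgfr3 was present only in transitional cell A6 of E13.5, at 1312, and its highest signal elsewhere was 898, on 1 of the 5 arrays. Without these arrays receptors were present in 14 of 37 cells (37.8%, 22.5 to 55.2). None of the other 6 cells of E16.5 held Fgfr1, Fgfr2 or Fgfr3 at the level of presence, which allows a share of up to 50.0%. The list of other receptors and co-receptors, given below, had 2 of 24 combinations present in those 6 cells.

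**Figure D2:**
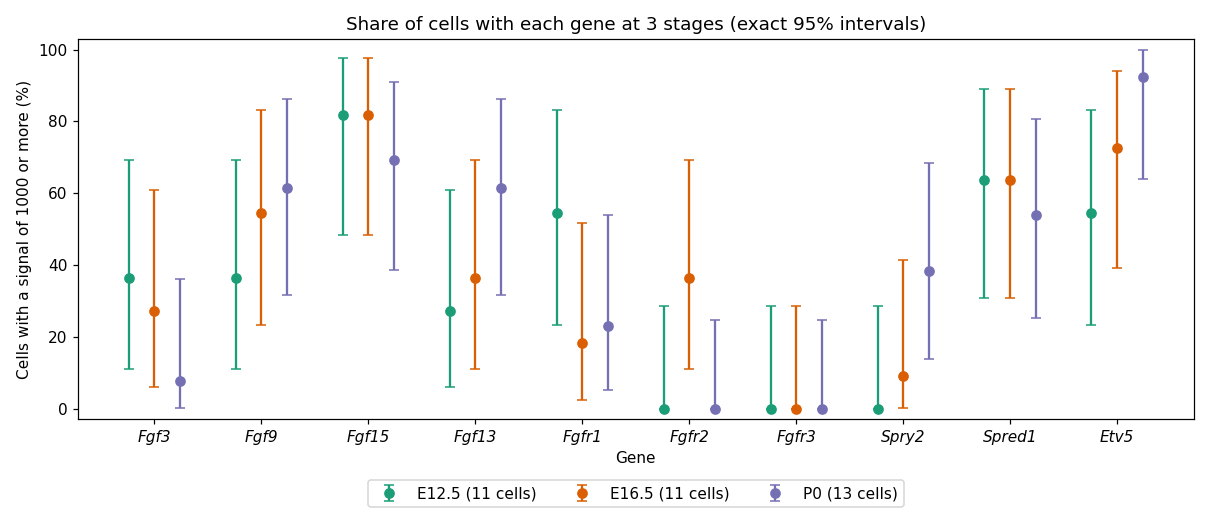
Percent of cells at or above a signal of 1000 for each gene at E12.5 (11 cells), E16.5 (11) and P0 (13). Points are shares and bars exact 95% intervals. The Etv5 share is 54.5%, 72.7% and 92.3%, that of Spry2 0%, 9.09% and 38.5%, and the intervals of the 3 stages overlap for every gene.

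Among the 10 genes as deposited, the target genes Spry2 and Etv5 had the largest gains in the share of positive cells between E12.5 and P0, 38.5 and 37.8 points, followed by Fgf13 with 34.3. The order was not stable, since the gain of Spry2 was 23.1 points at a level of presence of 2000 or with the mean of the probe sets and 12.6 after quantile normalization, where that of Fgf13 was still 34.3. Upstream sequence was available for 8 of the 10 genes in the RefSeq promoter table (build GRCm38.p6), not for Fgf15 or Fgfr1. Shown here for Spry2 and for both starts of Etv5 are the 250 bases before the start of transcription, on the strand of the gene. Capitals mark the letters GGAAGT, a core of Ets factor sites.

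Spry2 (chr14:105896820-105897069, minus strand): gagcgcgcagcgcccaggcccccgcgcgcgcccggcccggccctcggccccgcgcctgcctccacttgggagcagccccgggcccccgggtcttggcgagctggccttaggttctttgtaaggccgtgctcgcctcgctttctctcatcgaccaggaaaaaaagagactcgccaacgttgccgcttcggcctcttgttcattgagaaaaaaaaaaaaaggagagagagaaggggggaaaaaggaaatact

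Etv5, upstream start (chr16:22439571-22439820, minus strand): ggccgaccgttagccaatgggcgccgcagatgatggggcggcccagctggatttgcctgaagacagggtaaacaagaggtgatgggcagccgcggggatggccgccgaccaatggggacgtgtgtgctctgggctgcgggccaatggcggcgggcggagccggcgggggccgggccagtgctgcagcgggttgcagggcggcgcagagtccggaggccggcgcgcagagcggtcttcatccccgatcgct

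Etv5, downstream start (chr16:22438369-22438618, minus strand): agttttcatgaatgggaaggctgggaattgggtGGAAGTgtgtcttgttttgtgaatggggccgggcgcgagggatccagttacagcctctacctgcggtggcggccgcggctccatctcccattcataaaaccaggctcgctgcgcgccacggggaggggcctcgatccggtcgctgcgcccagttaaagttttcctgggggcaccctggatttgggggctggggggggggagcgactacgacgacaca

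GGAAGT, on either strand, occurred in 2 of the 13 windows of the 8 genes, 1 of Etv5 (its first base at position -217 from the start) and 1 of Fgf13, and in 19.7% of the 32851 windows of the table. CCGGAA, which shares the letters GGAA with it, occurred in 0 of the 13 windows and in 12.03% of all.

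Etv5 encodes an Ets transcription factor of the Pea3 group, whose transcription follows FGF signaling in many embryonic tissues. Positive cells numbered 6 of 11, 8 of 11 and 12 of 13 in the order E12.5, E16.5, P0. At E12.5 the signals ran from 16.1 to 18964 with a median of 4632, and no cell lay between 223 and 4632. At P0 12 cells lay between 4294 and 14652, and the remaining cell, the transitional cell C5, had 157. The E13.5 cells had 5354, 1457, 5592 and 48.4, the E14.5 cells 205 and 15037, and the E15.5 cell 2386. At E16.5 the signals ran from 146 to 87731 (median 1834), with the 5 arrays that stood apart between 815 and 2162.

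For Etv5, P0 minus E12.5 was 37.8 points (2.53 to 65.0), short of the 40 points that 1.84% of all genes passed upward and 0.478% downward. At this level of presence none of the 10 genes passed 40 points in either direction. Under alternatives Fgfr1 did, as given above, and so did Spry2 at a level of 500 (52.4), Etv5 without the transitional cells (45.5) and at 5000 (40.6), and Fgf15 at 5000 (-51.0). Present signals of the stages overlapped, and the ratio of medians was 1.83-fold. In the 6 transitional cells Etv5 was present in 2 (33.3%, 4.33 to 77.7).

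Spry2, a Sprouty protein that restrains receptor tyrosine kinase signaling, was the least widespread of the target genes. It was present in 5 cells of P0 (1378, 1572, 2059, 3344 and 4258), in E16.5 cell F5 (9574) and in E13.5 cell A5 (2420). At E12.5 the highest signal was 886, and 0 of 11 cells allow a share of up to 27.3%. The E14.5 cells had 273 and 36.1 and the E15.5 cell 123. P0 minus E12.5 was 38.5 points (5.29 to 64.5), with intervals that included 0 at 2000 (-6.79 to 50.3) and after quantile normalization (-22.03 to 42.4), and none of the positive cells lay on the 5 arrays. In each of the 7 cells only 1 of its 2 probe sets was at 1000 or more, and the other probe set reached that level in no cell.

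Spred1, a relative of the Sproutys that inhibits Ras activation, was present at all ages with more than 2 cells. Both E12.5 and E16.5 had a share of 63.6% and P0 one of 53.8%, and P0 minus E12.5 was -9.79 points (-42.3 to 26.6). The sign turned with 1 probe set (11.2), the mean of the probe sets (3.497) and levels of 500 (5.59) and 5000 (6.29), so no direction can be given. At E16.5 Spred1 was present in 4 of the 5 arrays that stood apart and in 3 of the other 6. Its signals ran from 57.6 to 20674 at E12.5 (median 3014), from 34.7 to 40777 at E16.5 (median 1115) and from 103.2 to 39836 at P0 (median 1929). The E13.5 cells had 3782, 695, 1779 and 126, the E14.5 cells 322 and 93.8, and the E15.5 cell 5730. A few cells were far above the others of their stage, E3 at E12.5, the transitional cell D5 at E16.5 and A8 at P0.

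Of the 24 Spred1 cells, 14 held at least 8 of 18 measured G2/M genes, where 14.9 were expected from the shares within stages, and the median number was 9 in cells with Spred1 and 12 in cells without. Since the study named Spred1 from these same cells, this count is not independent of it. Fgf13 stood at 16 of 19 cells with at least 8 G2/M genes, against 12.7 expected, with medians of 12 in cells with Fgf13 and 5 in cells without. It lay furthest from the expected number among the 10 genes and was picked after the values were seen. Cells with Fgf13 also held more genes in all, a median of 3357 against 2644.

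The probe sets of 1 gene often did not reach 1000 in the same cell. Fgf15 had a single probe set. Of the 20 Fgf9 cells, 12 had both probe sets present, but of the 19 Fgf13 cells 3 had both. All 3 probe sets were present in 1 of 9 Fgf3 cells, 1 of 15 Fgfr1 cells, 1 of 5 Fgfr2 cells and 3 of 31 Etv5 cells. None of the 24 Spred1 cells had all 8 probe sets present, and 6 had only 1. Presence of these genes by the highest probe set is thus presence of some of their probed sequence.

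**Figure D3:**
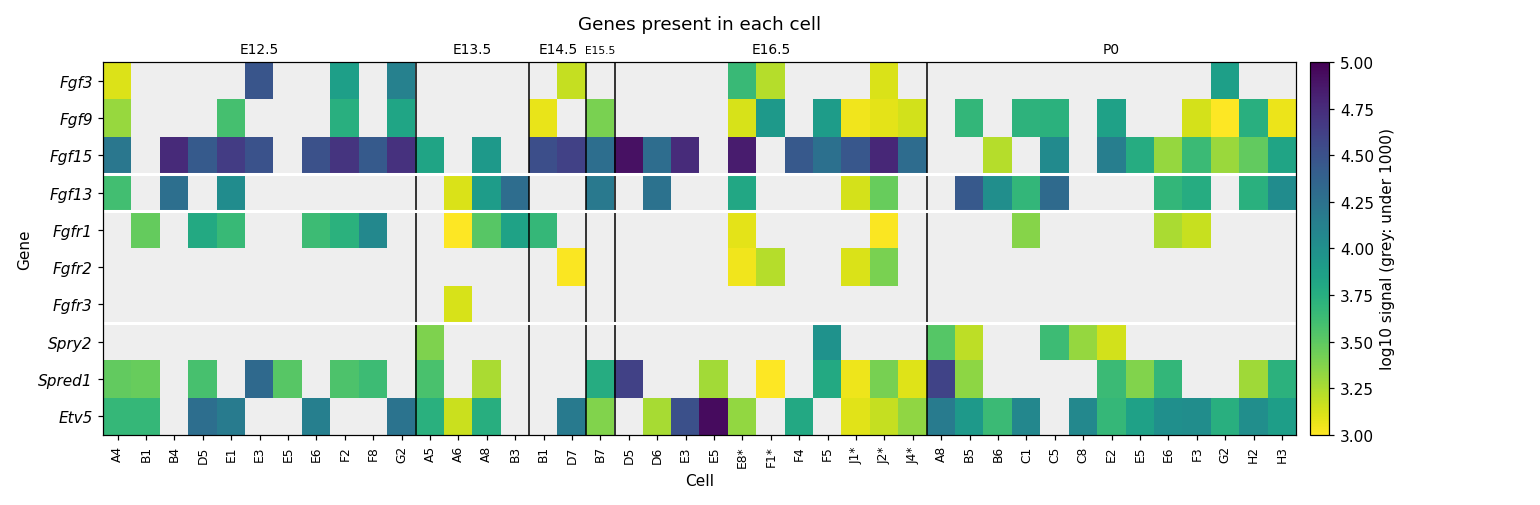
Genes present (rows) in each of the 42 cells (columns, ordered by stage), colored by log10 signal, with grey for signals under 1000 and asterisks at the 5 E16.5 arrays that stood apart. White lines separate secreted ligands, Fgf13, receptors and targets. The 18 cells with a receptor and the 7 cells with Spry2 have no cell in common at this level of presence, though they do at 500 and after quantile normalization.

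Ligand, receptor and target transcripts were set against each other within cells. A secreted ligand and a receptor were found together in 15 cells, and 14.6 were expected if both were spread independently over the cells of each stage. A receptor and a target were found together in 16 cells against 15.7 expected, a ligand and a target in 33 against 32.7, and all 3 classes in 14 cells against 12.8. These numbers therefore lay within 2 cells of independence. Without the 5 arrays they were 11 against 10.9 for ligand and receptor, 12 against 11.7 for receptor and target and 28 against 27.7 for ligand and target, and all 3 classes were present in 10 cells.

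The most common state was a ligand and a target with no receptor transcript at the level of presence, in 19 cells (45.2%, 29.8 to 61.3). E12.5 had 3 such cells, E16.5 had 6 and P0 had 8. Of the 6 of E16.5, 1 was on the 5 arrays that stood apart and 5 were among the other 6 cells. Without the 5 arrays this state was found in 18 of 37 cells (48.6%, 31.9 to 65.6). No expected number is given for it. A target without ligand or receptor was found in 4 cells, a ligand alone in 1 cell and a receptor alone in 1 cell. Etv5 was present in 13 of the 18 cells with a receptor transcript (12.2 expected) and in 18 of the 24 without. Spred1 was present in 9 of the 18 (9.48 expected).

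Spry2 and a receptor transcript were found together in 0% of the 42 cells (0 to 8.41), where 2.27 cells were expected, 2.09 of them with Fgfr1. This interval is that of the joint share over all 42 cells. Among the 18 receptor cells or the 7 Spry2 cells alone, a larger share is allowed. At a level of presence of 500 both were found together in 21.4% of the cells, and after quantile normalization in 9.52%, so the separation did not hold at these settings. In the 7 Spry2 cells the Fgfr1 signals ran from 19.8 to 167, below the 283 that was the median of Fgfr1 over all cells. That median mixes stages. Of the 7 cells, 5 were of P0, where the Fgfr1 median was 127, and 0 of E12.5, where it was 2954. Cells with Spry2 also held fewer genes in all, a median of 2555 against 3114 in cells without. Dusp6, a phosphatase of the MAP kinases that also responds to FGF, was present in 5 of the 7 Spry2 cells (4.01 expected), 17 of the 31 Etv5 cells (15.5 expected) and 10 of the 18 cells with a receptor (9.19 expected). Spred2, the paralog of Spred1, was present in 0 of the 7 Spry2 cells (1.29 expected) and in 7 of the 24 Spred1 cells (6.67 expected).

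Of the 45 pairs of the 10 genes, 38 lay within 2 cells of the number expected, 4 were at least 2 cells above it and 3 at least 2 cells below. The pairs above were Fgf3 with Fgf9 (7 cells, 4.21 expected), Fgf9 with Fgf13 (12, 9.20 expected), Fgf13 with Fgfr1 (9, 6.46 expected) and Fgf3 with Fgfr2 (4, 1.59 expected). The pairs below were Fgf13 with Spred1 (9, 11.3 expected), Fgf13 with Spry2 (2, 4.19 expected) and Fgfr1 with Spry2. Without the 5 arrays all 4 of the pairs above lay within 2 cells of the number expected, Fgf3 with Fgfr2 at 1 (0.50 expected), Fgf3 with Fgf9 at 4 (2.57 expected), Fgf9 with Fgf13 at 9 (7.18 expected) and Fgf13 with Fgfr1 at 7 (5.73 expected). Of the pairs below, Fgf13 with Spry2 (2, 3.99 expected) and Fgfr1 with Spry2 (0, 1.90 expected) then lay within 2 cells. Fgf13 with Spred1 (7, 9.22 expected) did not. The phi coefficient of presence, a correlation of 2 yes or no variables over all 42 cells with the 5 arrays included, reached 0.3 in 2 of the 36 pairs of genes present in at least 5 cells (5.56%), Fgf3 with Fgfr2 at 0.52 and Fgf3 with Fgf9 at 0.32. Between these genes and all 7472 genes in 5 to 37 cells, 5.86% of the coefficients were at 0.3 or more and 1.33% at -0.3 or less, the latter met by 1 of the 36 pairs. The median coefficient was 0.024 among the pairs and 0.05 with all genes.

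**Figure D4:**
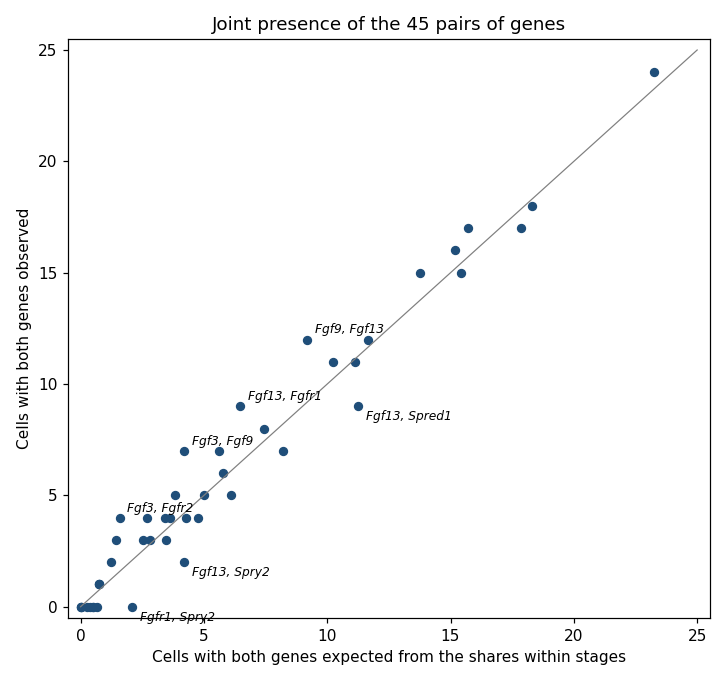
Cells in which both genes of a pair were present (y axis, number of cells) against the number expected from their shares within stages (x axis), for the 45 pairs of the 10 genes, with the line of equality. Named pairs lie at least 2 cells from the expected number, and the deviations run from -2.26 to 2.80 cells.

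The combinations were diverse. The 42 cells held 35 distinct sets of the 10 genes, of which 29 were found in 1 cell each. The most common set, Fgf9, Fgf15, Fgf13, Spred1 and Etv5, was found in 3 cells, E15.5 cell B7 and P0 cells H2 and H3. All 3 secreted ligands were present together in 6 cells and all 3 target genes in 4.

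The rest of the pathway was covered by lists of genes, described by the share of gene and cell combinations present. Of 18 other Fgf genes measured, 11 were present in some cell, in 19 of 756 combinations (2.51%, 1.52 to 3.90), and 10 of these 19 lay in the transitional cell F1 of E16.5, 1 of the 5 arrays. Of 4 other receptors and co-receptors, 5 of 168 combinations were present (2.98%, 0.973 to 6.81). Adaptors and members of the Ras and MAP kinase cascade were far more common, with 189 of 462 combinations over 11 genes (40.9%, 36.4 to 45.5). Among these, Nras, a Ras protein, was present in 29 cells, the phosphatase Ptpn11 in 26, the kinase Braf in 20, and the adaptors Gab1 in 19 and Grb2 in 18. Ptpn11 had the same numbers of positive cells as Etv5 at both E12.5 and P0, 6 and 12.

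Of 14 other feedback and target genes, 135 of 588 combinations were present (23.0%, 19.6 to 26.6). The immediate early genes Fos and Egr1, which respond to many signals, were present in 32 and 29 cells, Dusp6 in 21 and Spred2 in 13. Dusp6 cells numbered 8 of 11, 2 of 11 and 8 of 13 in the order E12.5, E16.5, P0. Of 17 genes of heparan sulfate synthesis and its core proteins, 163 of 714 combinations were present (22.8%, 19.8 to 26.1), with the glypican Gpc6 in 18 cells and the sulfotransferase Hs2st1 in 17. None of the 64 genes of these 5 lists differed by 40 points between E12.5 and P0 in either direction. Over all genes measured, 1.84% were at least 40 points higher at P0 and 0.478% at least 40 points lower, so few were to be expected among 64.

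The genes of the whole array whose presence over the 42 cells was most like that of an FGF gene, by the phi coefficient, were given by the 3 highest coefficients. They were Eif3h, Cox20 and Tmx2 for Fgf15 (up to 0.66), Pfdn4, Grhpr and Isy1 for Fgf9 (up to 0.62) and St8sia4, Recql4 and Capn15 for Fgf3 (up to 0.62). For Fgf13 they were Psma5, BC004004 and Alyref (up to 0.64), and for Fgfr1 Trmt6, Msantd2 and Spc24 (up to 0.55). Nfasc, 1600029O15Rik and Lce1h were most like Fgfr2 (0.77, each sharing 4 cells of 5). Since 4 of the 5 Fgfr2 cells were on the E16.5 arrays that stood apart, each of these genes shared some of those arrays with it. Coefficients without the 5 arrays are not given. The 3 for Etv5 were Lamp1, Ildr2 and Casp2 (up to 0.68), those for Spred1 Tmed9, Gli2 and Plekha8 (up to 0.52), and those for Spry2 Sertad4, Wdr7 and Cgrrf1 (0.55 each). None of these 27 genes was a gene of the pathway lists.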

How the data were processed

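The profiles were 42 single retinal cells of CD-1 mice, each amplified by 35 cycles of PCR, with 10 micrograms of cDNA hybridized to 1 Affymetrix mouse expression array. The deposited intensity values are linear MAS 5.0 signals, which the authors scaled to a target of 500. The trimmed mean of every array (2% at each end) lay between 500.002 and 500.023. Amplification from 1 cell can lose rare transcripts, and the number of arrays limits the precision.

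Probe sets were named from the platform annotation, 34958 with 1 symbol being used and 932 with several left out. Gene signals were the highest probe set, with presence at 1000 or more. Groups came from the sample labels, transitional cells from the study. No test between stages was made and no p-value computed. Expected joint numbers are sums over stages of products of shares. Presence differences of 40 points, median ratios of 4-fold (higher median at 1000 or more) and phi of 0.3 were described over all genes. Named genes were the 10 genes, list genes present in at least 10 cells and the 3 genes with the highest phi. Calculations used Python 3.11.15, pandas 2.3.3, NumPy 2.4.6 and SciPy 1.17.1 and were checked on simulated data. The genes and lists were chosen with earlier results of these data known. Some genes of the lists are not reported here. Alternatives were other levels of presence, other rules for probe sets, quantile normalization, and leaving out cells or arrays.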

Additional observations from a re-analysis of the deposited data

Results flagged for a closer look

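The Fgf3 signal of 524 in cell A6 of E13.5 stood apart from the other 3 cells of that stage, with a gap to the nearest of 0.861 of the whole range on the log2 scale, past Dixon's 95% critical value for 4 samples. The signal is below the level of presence, and A6 is a transitional cell. E13.5 was the only stage with 4 to 10 cells, so 10 genes were looked at, and chance flags about 1 in 20.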

How the results depend on the processing

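Of 314 alternative values, 274 differed from the value reported by less than its counting error (for ratios of medians, the spread between cells) and 40 by more. Among the 90 alternative values of differences and ratios between P0 and E12.5, the sign changed in 8, for Spred1, Fgf9 and Fgfr2, none of them past 40 points or 4-fold as reported. For Spred1 these are the 4 differences given in the report and the ratio below. For Fgf9 they are the difference of -6.99 and a log2 ratio of -0.015 after quantile normalization (1.16 as reported). For Fgfr2 the log2 ratio was 0.24 with 1 probe set (-0.41 as reported). In 7 the difference passed 40 points, for Fgfr1, Etv5, Spry2 and Fgf15. At a level of presence of 500, the shares moved to 19.0% for Fgfr3, 35.7% for Spry2 and 21.4% for Spry2 with a receptor. At 2000 they were 0% for Fgfr3, 2.38% for Fgfr2, 28.6% for Fgf9, 21.4% for ligand with receptor, 21.4% for receptor with target and 19.0% for all 3 classes. At 5000 they were 0% for Fgfr2 and Fgfr3, 2.38% for Spry2, 9.52% for Fgf3 and for Fgfr1, 14.3% for Spred1, 19.0% for Fgf9 and 47.6% for Etv5. The joint shares at 5000 were 7.14% for ligand with receptor, 2.38% for receptor with target and for all 3 classes, and 42.9% for ligand with target. The differences between P0 and E12.5 at 5000 were -51.0 points for Fgf15 and 0 points for Spry2.

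With the mean of the probe sets, the shares were 0% for Fgfr3, 2.38% for Fgfr2, 21.4% for Fgfr1 and for Spred1, 19.0% for ligand with receptor, 11.9% for receptor with target, 59.5% for ligand with target and 9.52% for all 3 classes. With 1 probe set per gene, the shares were 0% for Fgfr3 and 38.1% for Spred1, and the log2 ratios of medians -7.88 for Fgfr1, 3.10 for Spred1 and 3.71 for Spry2. Quantile normalization gave 9.52% for Spry2 with a receptor. Without the 5 E16.5 arrays the Fgfr2 share was 2.70%, and without the 6 transitional cells the Fgfr3 share was 0%. Leaving out each cell of E13.5 and E14.5 in turn gave Fgfr3 shares of 0% to 2.44%, the lowest without E13.5 cell A6, and moved no other value beyond its counting error. The cause of these moves was not tested.

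With 11 and 13 cells in the stages compared, 8 of the 10 intervals of the differences between P0 and E12.5 include 0. No paired analysis was possible because the labels tie no cell to an animal or litter and the cell names do not pair cells across stages.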
